A study of Mus musculus with 6 samples.

Results

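The regions described here were 220 acetylated sites away from gene starts whose enhancer mark was called in resting macrophages at exactly the acetylated position, and was not called there after stimulation. They were chosen by a rule on the peak lists. A region was an H3K27ac peak of lipopolysaccharide (LPS)-treated cells that did not overlap the 1000 bp on either side of any annotated gene start, and its summit, the base with the strongest signal, lay inside an H3K4me1 peak of PBS-treated cells and inside no H3K4me1 peak of LPS-treated cells. Of the 2 LPS H3K27ac summits in the site upstream of Tnf known in the study as TNF-9, the weaker one has this layout. The rule kept 220 of 4200 LPS H3K27ac peaks (5.24%) and 220 of the 2959 distal ones (7.43%, 95% Wilson interval 6.54 to 8.44, which like every interval below covers counting error only). Both acetylation and H3K4me1 at the summit were thus selected on, so their presence or absence there is a description and not a finding.

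H3K4me1, monomethylation of histone H3 at lysine 4, marks enhancers, including those that are poised and not yet active. H3K27ac, acetylation of lysine 27, marks enhancers and promoters in use. At an active enhancer the modified nucleosomes usually flank a stretch of open DNA where transcription factors sit, and in macrophages the lineage factor PU.1 opens many such sites before a signal arrives. LPS, a component of the bacterial outer membrane, is sensed by the receptor TLR4 with its co-receptor CD14, and within the first hour drives NF-kB and AP-1 to enhancers of inflammatory genes.

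Cells were bone marrow-derived macrophages (BMDMs) of C57BL/6 mice, grown for 6 days in medium conditioned by L929 cells and then given LPS or PBS for 1 h. CUT&RUN, in which an antibody directs a nuclease to chromatin and the released DNA is sequenced, was carried out with H3K4me1, H3K27ac and control IgG in each treatment. Each antibody and treatment had 1 library, and how many mice went into it is not given in the sources used here. With no replicates, differences between treatments below are differences between single libraries, without a test. Among markers of the labelled cell type, 6 of 8 macrophage genes had a PBS H3K4me1 peak within 10 kb of the start and 8 of 8 an LPS one, against 3 of 16 and 5 of 16 genes of other cell types (Elane, Ins2 and Pax6 in both, with Neurod1 and Ttr under LPS). Only Spi1, which encodes PU.1, had an LPS H3K27ac peak among those markers.

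The lists held 64758 H3K4me1 peaks under PBS and 73049 under LPS, and 4200 H3K27ac peaks under LPS but only 52 under PBS. Fragment numbers at summits could be recovered from the fold enrichment and p-value of each peak. A listed H3K4me1 summit rested on 8 or more fragments in either treatment, with a median of 17 in both, and an LPS H3K27ac summit rested on 5 or more. A position outside a peak held too few fragments over its local background to be called at this depth. That is not the same as lacking the mark.

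Sequences of 3 regions described below, 201 bases centred on the H3K27ac summit, are shown. These regions are both of those upstream of Peli1 (the strongest of all and one with an NF-kB match) and the strongest near Tnfaip3. The sequences were read from GRCm38, and capitals would mark a match to a motif described further on. These 3 stretches hold none, and the NF-kB match of the near Peli1 region lies just outside the stretch shown.
Peli1, far region (chr11:21046488-21046688, + strand): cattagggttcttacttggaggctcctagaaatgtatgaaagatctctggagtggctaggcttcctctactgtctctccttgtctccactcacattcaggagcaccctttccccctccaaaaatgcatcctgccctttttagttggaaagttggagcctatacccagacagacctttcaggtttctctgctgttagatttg
Peli1, near region (chr11:21082991-21083191, + strand): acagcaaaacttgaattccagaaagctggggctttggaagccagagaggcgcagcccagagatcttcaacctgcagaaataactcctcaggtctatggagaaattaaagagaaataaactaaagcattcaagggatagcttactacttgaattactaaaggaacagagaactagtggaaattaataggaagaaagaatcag
Tnfaip3 (chr10:19063304-19063504, + strand): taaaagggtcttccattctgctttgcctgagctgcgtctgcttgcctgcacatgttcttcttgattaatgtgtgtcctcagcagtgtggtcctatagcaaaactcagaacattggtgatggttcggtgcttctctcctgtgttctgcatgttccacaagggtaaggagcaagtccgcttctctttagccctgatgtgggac

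The strongest H3K27ac peak of the whole LPS list was one of these regions. It spanned chr11:21045721-21047342, 44703 bp upstream of Peli1, which encodes an E3 ubiquitin ligase of Toll-like receptor signalling. Its fold enrichment was 18.06, its −log10 q was 26.64 and its summit held 25 fragments, and at 1622 bp it was the widest region of the 220. The PBS H3K4me1 peak around it was 1715 bp wide with a −log10 q of 7.32. Under LPS, H3K4me1 peaks began 67 bp to the right of the summit and ended 789 bp to its left, so both overlapped the PBS peak and left the summit between them. A second region lay 8200 bp upstream of Peli1, with a fold enrichment of 5.49 and 10 fragments. There the PBS H3K4me1 peak was stronger (−log10 q 11.12), and an LPS H3K4me1 peak ended 26 bp from the summit on the left, with none on the right for 11840 bp.

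The site upstream of Tnf, which encodes the cytokine tumour necrosis factor, was of ordinary strength among the regions. It spanned chr17:35209731-35210103, in intergenic DNA 7877 bp upstream of the Tnf start and 4533 bp upstream of the start of Lta (lymphotoxin alpha), with Ltb (lymphotoxin beta) 15445 bp away. Its fold enrichment was 5.64 and its −log10 q was 3.75, which placed it at rank 124 of the 220, and its summit held 8 fragments. Its PBS H3K4me1 peak was 955 bp wide and strong, with a −log10 q of 14.89 and a rank of 2576 in its list. The nearest LPS H3K4me1 peaks were 414 bp to the left, where the peak overlapped the PBS peak, and 1010 bp to the right, a gap of 1423 bp. The stronger LPS H3K27ac summit of TNF-9, 654 bp to the right with a fold enrichment of 7.26 and rank 511 in the list, lay in no H3K4me1 peak of either treatment and is not one of the 220.

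**Figure D1:**
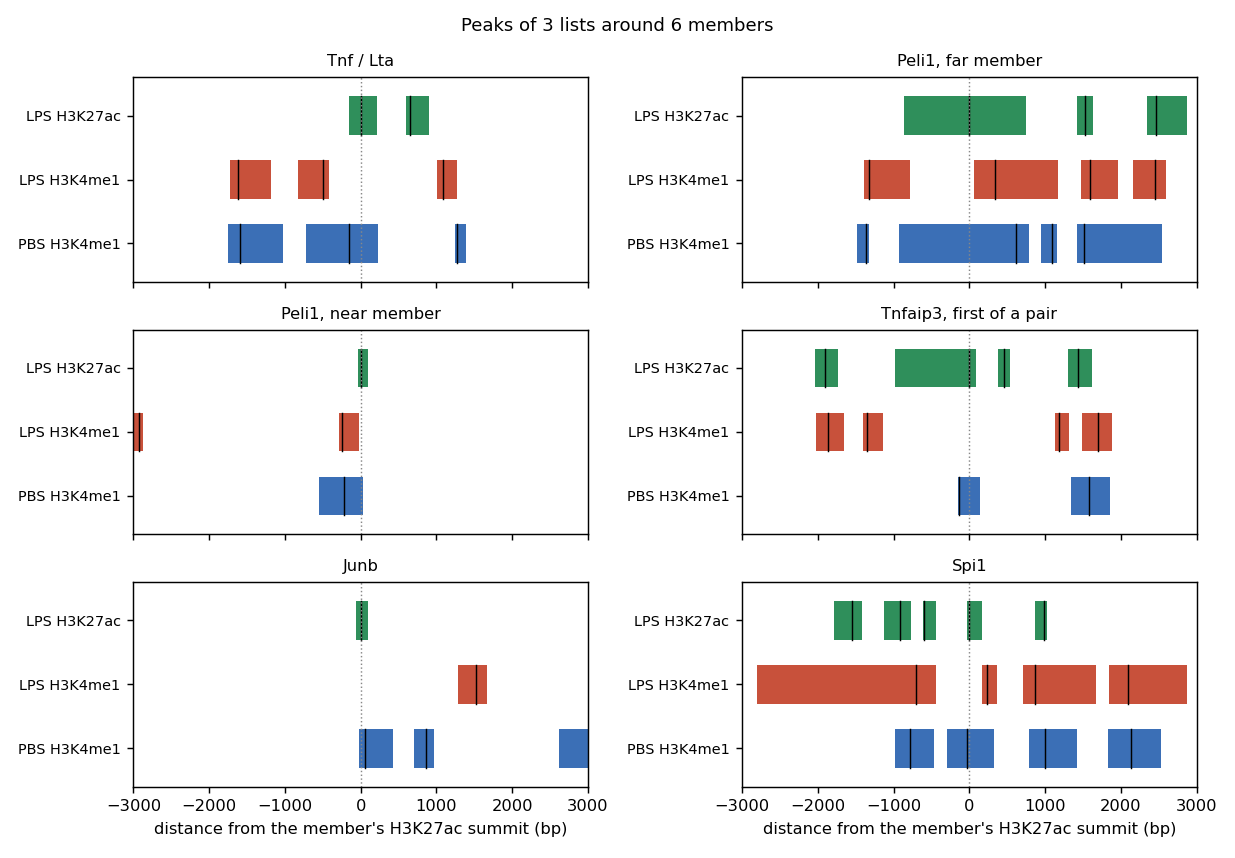
Peaks of the LPS H3K27ac, LPS H3K4me1 and PBS H3K4me1 lists (bars, with a black line at each peak's summit) around 6 of the 220 regions, by distance in bp from the region's H3K27ac summit (dotted line). In each panel a PBS H3K4me1 bar crosses the dotted line and no LPS H3K4me1 bar does, as the rule requires. LPS bars lie on both sides near Tnf, Tnfaip3, Spi1 and the far Peli1 region, and on 1 side within the plotted 3000 bp for Junb and the near Peli1 region.

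Behind the far Peli1 region, the rest of the 10 strongest regions were more modest, with fold enrichments from 8.49 to 12.97. The second strongest, in an intron of Lasp1, a gene for an actin-binding protein, was 10865 bp upstream of B230217C12Rik, with a fold enrichment of 12.97 and 22 fragments. The third was 37973 bp downstream of the start of Lilrb4a, an inhibitory receptor of myeloid cells, with a fold enrichment of 10.59 and 14 fragments. Both were held by broad PBS H3K4me1 peaks, of 1713 and 1354 bp, with the Lasp1 summit 845 bp and the Lilrb4a summit 46 bp from the nearer edge. The next was 13999 bp upstream of Zfp703, a transcriptional regulator (fold enrichment 9.92), followed by a site in an intron of Pstpip1, an adaptor of the actin cytoskeleton (9.18).

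Tnfaip3, which encodes A20, a ubiquitin-editing inhibitor of NF-kB, had a pair of regions 47747 and 49176 bp upstream of its start. They ranked 6 and 11, with fold enrichments of 9.99 and 8.66 and 14 and 12 summit fragments. The pair differed in the surrounding H3K4me1. The first was held by a weak PBS peak (−log10 q 2.81, 279 bp) that no LPS peak touched, with LPS peaks 1142 and 1130 bp away. The second was held by a 524 bp PBS peak with a −log10 q of 5.37 and had LPS peaks 118 and 60 bp away.

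The 4 remaining regions among the 10 strongest had Riok3, Cd47, Klf14 and Tril as nearest genes. Those of Riok3, an atypical kinase (fold enrichment 9.77), and of Cd47, a surface protein that inhibits phagocytosis (9.14), lay in introns of these genes. The others lay in the non-coding gene Lncpint 164568 bp upstream of Klf14 (8.49), and 60886 bp downstream of the start of Tril, an accessory protein of TLR4 (8.84). The Tril region was the most isolated of the 220 by its nearer LPS H3K4me1 peak, with the closest ones 46718 and 42148 bp away. It was held by a PBS H3K4me1 peak of −log10 q 2.81 with 15 fragments, close to the limit of the list. In the LPS H3K27ac list as a whole, 2 of the 10 strongest and 7 of the 100 strongest peaks were such regions, and 49 of those 100 were distal.

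As a group the 220 regions had H3K27ac peak values close to those of other distal peaks with H3K4me1 at the summit. Every class holds called peaks only, so weaker sites are missing from each of the medians below. The median fold enrichment was 5.78 (range 3.87 to 18.1), compared with 5.64 for 754 distal summits inside H3K4me1 peaks of both treatments, 5.67 for 289 inside an LPS H3K4me1 peak only and 5.16 for 1696 inside neither. Widths had medians of 162, 157, 156 and 139 bp in the same order, and summit fragments medians of 9, 9, 9 and 7. The smallest counts, 5 or 6 fragments, were behind 24 of 220 regions (10.9%), compared with 11.7% of summits in both lists, 13.5% in the LPS list only and 42.7% in neither. The interval of fold enrichment between the quartiles, 5.13 to 6.62, nearly coincided with that of summits in both lists, 4.99 to 6.63. A −log10 q of at least 5 was reached at 67 regions (30.5%, 24.8 to 36.8), compared with 31.7% of summits in both lists, 29.8% of those in the LPS list only and 22.8% of all distal peaks. Because H3K4me1 set the classes, these medians were not tested against each other.

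An H3K27ac peak before stimulation overlapped 1 of the 220 regions (0.455%), close to the share of all distal peaks (7 of 2959, 0.237%). The region lay in an intron of Aatk, 7482 bp downstream of the gene start, ranked 33 with a fold enrichment of 6.78 and 14 fragments, and was overlapped by 1 of the 52 PBS H3K27ac peaks. For the other regions, acetylation under PBS was not called, which does not show that it was absent. The PBS H3K27ac list had a peak within 10 kb of 0 of the 8 macrophage markers, and its summits rested on 8 or more fragments.

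The PBS H3K4me1 peaks that held the regions were stronger than the average PBS peak but weaker than those at sites marked in both treatments. Their −log10 q had a median of 7.31 (quartiles 4.5 and 10.4, range 2.06 to 22.1), compared with 9.33 for PBS peaks that held a summit marked in both treatments and 5.37 for all PBS peaks. Their widths had medians of 570, 888 and 335 bp, and their summits medians of 20, 25 and 17 fragments. A wider PBS peak offers more room for an H3K27ac summit, so the comparison with all PBS peaks is not independent of the rule. A narrower and weaker peak is more easily listed in 1 library and missed in the other, and the part of this in the choice of the regions was not tested. The reverse class, 289 summits inside an LPS H3K4me1 peak only, was held by LPS peaks with a median −log10 q of 7.51 and a median width of 612 bp, values that belong to another library and depend on its depth. That class was the larger (9.77% of distal peaks, 8.75 to 10.9), in a list with more peaks than the PBS one.

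The strongest PBS H3K4me1 peaks with a region belonged to genes of varied function. The highest −log10 q, 22.14 with 37 fragments, was in an intron of Nrp2, a co-receptor for semaphorins. It was followed by peaks near Samsn1, an adaptor protein of immune cells (21.03), in an intron of Zfp91, a zinc finger protein (21.03), in an intron of Wdfy2, an endosomal protein (18.66), and in a non-coding exon of Mdfic (17.83). At 4 of these 5, LPS H3K4me1 was called within 100 bp of the summit, at 8 bp for Nrp2, 73 bp for Samsn1, 58 bp for Zfp91 and 12 bp for Wdfy2. The Mdfic region was 977 bp from its nearest LPS peak. H3K27ac at these 5 had fold enrichments of 6.66 (Nrp2), 5.33 (Samsn1), 5.16 (Zfp91), 7.0 (Wdfy2) and 6.49 (Mdfic), around the group's upper quartile of 6.62 or below its median.

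LPS H3K4me1 was not called at these summits by the rule, but it was called close to most of them. An LPS H3K4me1 peak lay within 1000 bp on at least 1 side of 189 of 220 summits (85.9%, 80.7 to 89.9) and on both sides of 105 (47.7%, 41.2 to 54.3). The nearer peak was a median of 190 bp away, and at 114 regions (51.8%, 45.2 to 58.3) it was within 200 bp. At 142 regions (64.5%, 58.0 to 70.6) an LPS peak overlapped the PBS peak that held the summit. At 30 of these (13.6% of the 220, 9.72 to 18.8) LPS peaks did so on both sides of the summit. In the reverse class, with the lists exchanged, these shares were 59.5% (53.8 to 65.0) and 21.1% (16.8 to 26.2). At 31 regions (14.1%) there was no LPS peak within 1000 bp, and at 6 none within 5 kb. Where LPS peaks flanked both sides within 1000 bp, the gap between them had a median of 561 bp (145 to 1592), and those flanking peaks were of usual strength for their list, with a median −log10 q of 6.0 compared with 5.51. For distal H3K27ac summits in neither list, an LPS peak was within 1000 bp on at least 1 side in 22.6% and on both sides in 6.6%.

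The site upstream of Tnf, with its right-hand LPS peak 1010 bp away, just missed being counted as flanked on both sides, and the counts depended on such limits. With a 500 bp limit 31.8% of regions were flanked on both sides, and with 2000 bp 63.2%. When only H3K4me1 peaks of −log10 q of at least 5 were used in both lists, 227 regions met the rule, 25.1% were flanked on both sides and 39.2% of their PBS peaks were overlapped. When LPS H3K4me1 peaks were extended by 200 bp, 106 regions were left (3.58% of distal peaks), with 24.5% flanked on both sides and 30.2% overlapped. When peaks within 1000 bp of each other were merged in each list, 166 regions were left and 13.3% were flanked on both sides.

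**Figure D2:**
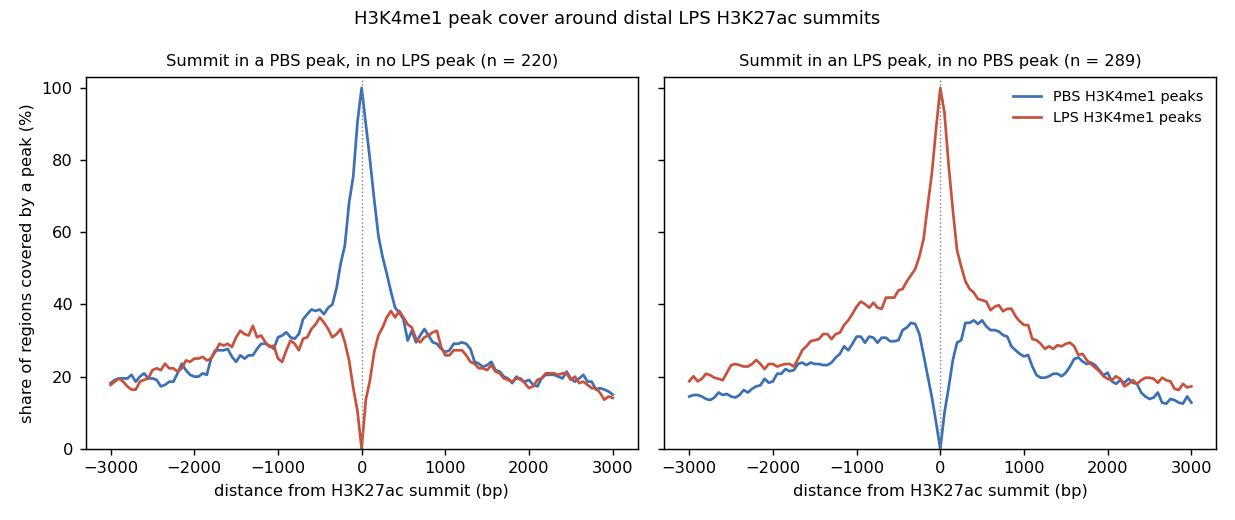
Share of distal LPS H3K27ac summits covered by a PBS (blue) or LPS (red) H3K4me1 peak at each distance in bp from the summit, for the 220 regions (left) and for the 289 summits inside an LPS H3K4me1 peak only (right). The values at 0 bp, 0% and 100%, are set by the rule. LPS cover rose to 36.4% at 500 bp to the left and 38.2% at 350 bp to the right of the 220 summits, and was close to PBS cover at 500 bp on either side. In the reverse class PBS cover rose to 34.9% and 35.6%. LPS cover, from a list that covers more of the genome, stayed above it at 500 and 1000 bp.

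Cover by LPS H3K4me1 peaks was 16.8% at 100 bp to the left and 19.1% at 100 bp to the right of the summits, where PBS cover was 75.5% and 80.0%. At 500 bp the treatments had met, at 36.4% on either side under LPS and 38.6% and 35.9% under PBS. At 3000 bp both had fallen to between 14.1% and 18.2%. The reverse class was alike near the summit and differed further out. Its PBS cover was 14.2% and 17.0% at 100 bp, but at 500 bp it was still below LPS cover, at 30.1% and 35.6% compared with 43.9% and 41.2%, and at 1000 bp it was 31.1% and 25.6% compared with 39.4% and 34.3%. In that class 240 of 289 summits (83.0%) had a PBS peak within 1000 bp on at least 1 side and 133 (46.0%) on both. The dip at the summit itself is set by the rule in either class.

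**Figure D3:**
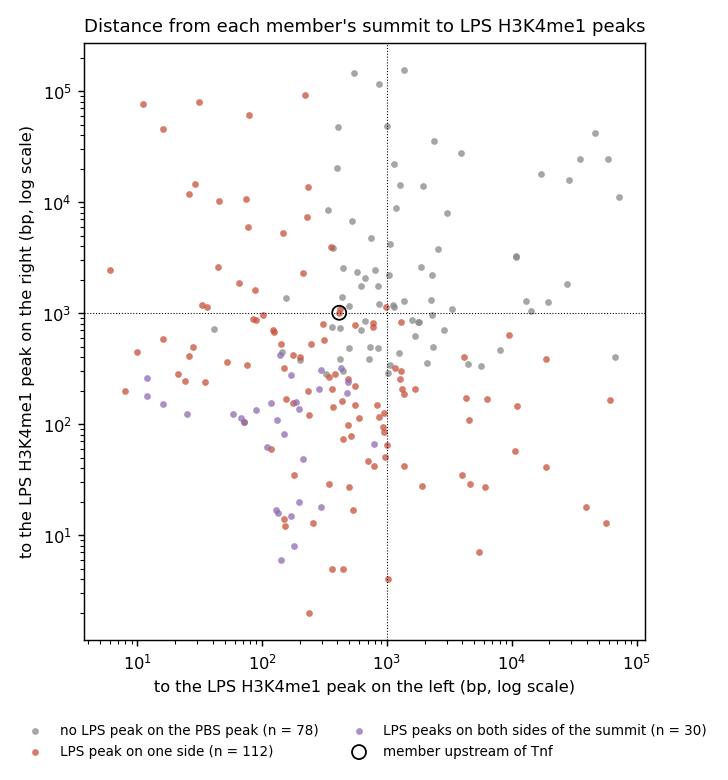
Distance in bp from each of the 220 summits to the nearest LPS H3K4me1 peak on the left (horizontal axis) and right (vertical axis), both on log scales, with dotted lines at 1000 bp and colours for whether LPS peaks overlapped the PBS peak that holds the summit. Where LPS peaks overlapped the PBS peak, the nearer LPS peak was at most 977 bp away (1 side) or 321 bp away (both sides), and the site upstream of Tnf (circle, 414 and 1010 bp) lies beside the dotted line.

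The 78 regions whose PBS H3K4me1 peak no LPS peak touched had the weakest of these PBS peaks. Their median −log10 q was 5.37, equal to that of all PBS peaks, with a median width of 346 bp, and 35 of them (44.9%) were below 5. For the 112 regions with an LPS peak on 1 side only, the medians were 8.33 and 669 bp, and 23 (20.5%) were below 5. For the 30 with LPS peaks on both sides they were 10.0 and 1000 bp, and 2 (6.67%) were below 5. The wider a PBS peak, the more room it offers for an overlap, so width and overlap are not independent here. H3K27ac did not follow this order, with median fold enrichments of 5.9, 5.65 and 5.74. Examples of untouched PBS peaks were those near Junb and in the intron of Mitf, and an example of overlap on both sides was the one 41527 bp upstream of Runx1.

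**Figure D4:**
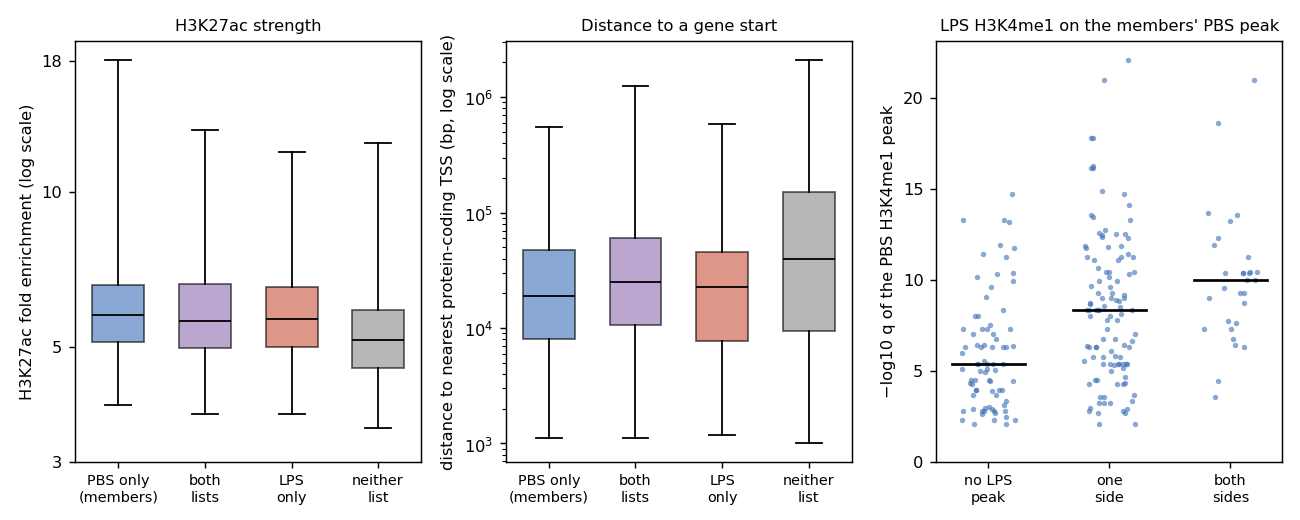
Fold enrichment of H3K27ac (left, log scale) and distance to the nearest protein-coding gene start in bp (middle, log scale) for distal LPS H3K27ac peaks by the H3K4me1 list that holds their summit, as medians, quartiles (boxes) and ranges (whiskers). On the right, the −log10 q of the PBS H3K4me1 peak of each of the 220 regions (points, with medians as lines), by whether LPS H3K4me1 peaks overlapped it, with medians of 5.37, 8.33 and 10.0.

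The regions were placed in genes much as other distal peaks were. The summit lay in an intron at 128 regions (58.2%, 51.6 to 64.5), compared with 54.6% of all distal peaks, between genes at 79 (35.9%), compared with 38.3%, in a non-coding exon at 10 and in a coding exon at 3. The nearest protein-coding gene start was a median of 19140 bp away (range 1120 to 554433), compared with 24942 bp for summits in both H3K4me1 lists, 22659 bp for those in the LPS list only and 39562 bp for those in neither. It was within 50 kb at 171 regions (77.7%, 71.8 to 82.7), compared with 63.0% of all distal peaks. For summits in both H3K4me1 lists the share was 71.4% (68.0 to 74.5), and for those in the LPS list only 75.8% (70.5 to 80.4). For summits in neither list it was 55.2%. The 220 regions had 197 different nearest genes. All autosomes and the X chromosome held some, from 5 of the 145 distal peaks on chromosome 13 (3.45%) to 7 of 47 on the X chromosome (14.9%).

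The regions often had acetylated neighbours. Another LPS H3K27ac peak was within 10 kb of 108 regions (49.1%, 42.6 to 55.7), compared with 33.4% of all distal peaks, 44.2% of those in both H3K4me1 lists and 50.5% of those in the LPS list only. At 29 regions (13.2%, 9.34 to 18.3) there were 3 or more such neighbours, compared with 7.13% of all distal peaks, 6.76% of those in both H3K4me1 lists and 11.4% (8.25 to 15.6) of those in the LPS list only. There were 16 neighbouring pairs of regions within 10 kb, and 5 PBS H3K4me1 peaks held more than 1 region, so regions of a pair are not independent of each other. One 1713 bp peak in the intron of Lasp1 held 3 (fold enrichments 12.97, 7.40 and 5.29). The other 4 shared peaks held pairs whose nearest genes were Pstpip1 (9.18 and 7.31), Mdfic (6.49 and 5.33), Fgd2, which encodes a guanine nucleotide exchange factor (6.23 and 5.97), and Ikbke (6.10 and 5.86). The last pair lay in an intron of Srgap2, 104667 and 105290 bp upstream of the Ikbke start.

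The genes near the regions included 18 of 148 genes in 6 lists on the LPS response and macrophages. These 18 had a region within 50 kb of the start (12.2%, 7.83 to 18.4), compared with 372 of all 21951 protein-coding genes, or 1.69%. The listed genes also had distal H3K27ac of any kind nearby more often. A distal LPS H3K27ac peak was within 50 kb of 58 of the 148 genes, and of 2799 genes in all (12.8%). Among genes with such a peak, the share with one of the 220 regions was 31.0% (20.6 to 43.8) in the lists and 13.3% (12.1 to 14.6) in all. The lists were chosen with earlier results known. The rule is the pattern of the site upstream of Tnf, and Tnf, Lta and Ltb are among the 18. Distal peaks per gene were not matched, and no difference was tested. Distal summits in both H3K4me1 lists were within 50 kb of 907 of all genes (4.13%). By list, these were near 2 cytokine, 2 NF-kB, 3 immediate-early, 5 LPS receptor, 8 macrophage and 1 interferon genes. Genes with a region were 3, 1, 4, 4, 4 and 2 in the same order. Some of the 18 shared a region, and the 19 regions concerned were 8.64% of the 220. The count of 18 fell to 7 with H3K27ac peaks of −log10 q of at least 5, to 9 with LPS H3K4me1 peaks extended by 200 bp and to 10 within 10 kb.

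Among cytokines and chemokines, 3 of 26 genes had a region, and these were Tnf, Lta and Ltb with the 1 site described above. Among 18 NF-kB subunits and inhibitors only Tnfaip3 had any. In LPS receptor signalling, 4 of 26 genes did. Besides Peli1 they were Cd14, the LPS co-receptor, Ikbke, a kinase of the interferon branch, and Ikbkg, which encodes the regulatory subunit of the IkB kinase complex. Cd14 had 3 regions within 50 kb, the nearest 6325 bp downstream of its start with a fold enrichment of 7.64 and 10 fragments. The Ikbke region was 2318 bp downstream of the start, inside the gene, with a fold enrichment of 4.32 and an LPS H3K4me1 peak 6 bp from its summit. The Ikbkg region, 30969 bp downstream of the start, lay where Ikbkg and G6pdx overlap, nearer to the start of G6pdx, with a fold enrichment of 6.63. No region was listed for the remaining members of this list, such as the receptor Tlr4 or the adaptor Myd88.

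Of 27 immediate-early factors and feedback regulators, 4 had a region. Junb, a subunit of AP-1, had one 2574 bp upstream of its start with 19 fragments and a fold enrichment of 4.99 over a local control level of 3.01, the highest among the 220 regions. Fos, another AP-1 subunit, had one 15240 bp downstream of its start (fold enrichment 5.50), and Klf6, a zinc finger factor, one 16077 bp upstream (5.16). Socs3, an inhibitor of cytokine signalling, had one 22393 bp upstream, in an intron of Pgs1 (4.83). The Fos region was bordered on the right by a broad LPS H3K4me1 peak 127 bp away, whereas the nearest LPS peaks to the Junb region were 1286 and 13082 bp away. All 4 had PBS H3K4me1 peaks of −log10 q between 4.27 and 10.18.

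Macrophage lineage genes had 4 of 30. The Spi1 region was in the gene, 4850 bp downstream of the start, with a fold enrichment of 5.39 amid 6 other H3K27ac peaks within 10 kb, and LPS H3K4me1 peaks 438 and 162 bp away. The Runx1 region was 41527 bp upstream (5.99), that of Mitf, a transcription factor of the myeloid and pigment lineages, was in its intron (6.05), and that of Ctss, the lysosomal protease cathepsin S, was 8091 bp upstream (6.27). Of 21 interferon response genes, Rsad2 and Cmpk2, neighbouring genes for antiviral enzymes, shared 1 region 3700 bp upstream of Rsad2 (7.39). Of 24 marker genes of other cell types, 0 had a region, with an interval up to 13.8% that includes the 1.69% of all protein-coding genes. A distal LPS H3K27ac peak of any kind was within 50 kb of 4 of the 24. Of the regions near listed genes, the far Peli1 region and the first of the Tnfaip3 pair were among the 10 strongest of the 220.

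Within 150 bp of the summit the GC content of the regions had a median of 46.8%, compared with 46.2% over all distal peaks and 48.2% in each of the other H3K4me1 classes, and the repeat-masked share had a median of 10.3%, the same as over all distal peaks. The C/EBP motif TTGCNNAA, of a factor family of macrophage differentiation, was found at 41 regions (18.6%, 14.0 to 24.3), compared with 13.2% of all distal peaks, 12.1% of summits in both H3K4me1 lists and 13.8% of those in the LPS list only. The AP-1 motif TGANTCA was found at 34 (15.5%, 11.3 to 20.8), compared with 12.3%, 15.5% and 12.1%. The PU.1 motif GAGGAAGT was found at 16 (7.27%, 4.53 to 11.5), compared with 4.36%, 7.29% and 5.88%. The motif AGATAA of GATA factors, some of which act in other blood lineages, was found at 38 (17.3%, 12.9 to 22.8), compared with 15.6%, 13.0% and 13.8%. The AP-1 and PU.1 shares were thus close to those of summits in both H3K4me1 lists, the C/EBP interval overlapped the intervals of both other H3K4me1 classes, and no difference was tested.

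An NF-kB motif was found at 12 regions (5.45%, 3.15 to 9.29), among them the one nearest to Cd14, compared with 6.18% of distal peaks, 8.22% (6.47 to 10.4) of summits in both H3K4me1 lists and 11.1% (7.95 to 15.2) of those in the LPS list only. The share was the lowest of the 3 classes with H3K4me1, with overlapping intervals and no test. The interferon-stimulated response element GAAANNGAAA was found at 15 (6.82%), compared with 5.44% of distal peaks, 5.44% of summits in both H3K4me1 lists and 7.27% in the LPS list only. The cAMP response element TGACGTCA was found at 0 of 220, where 9 of 2959 distal peaks had it. Searches covered both strands. None of the 7 motifs was found at 96 regions (43.6%, 37.2 to 50.2), compared with 54.1% of distal peaks. The share was 50.9% (47.4 to 54.5) for summits in both lists and 50.2% (44.4 to 55.9) for those in the LPS list only. In a window of 100 bp the AP-1 and PU.1 shares were 9.09% and 2.73%. Both an NF-kB and an AP-1 match were found at 0 of 220, and at 20 of 2959 distal peaks (0.676%). For summits in both lists the share was 1.19%, and for those in the LPS list only 1.73%.

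**Figure D5:**
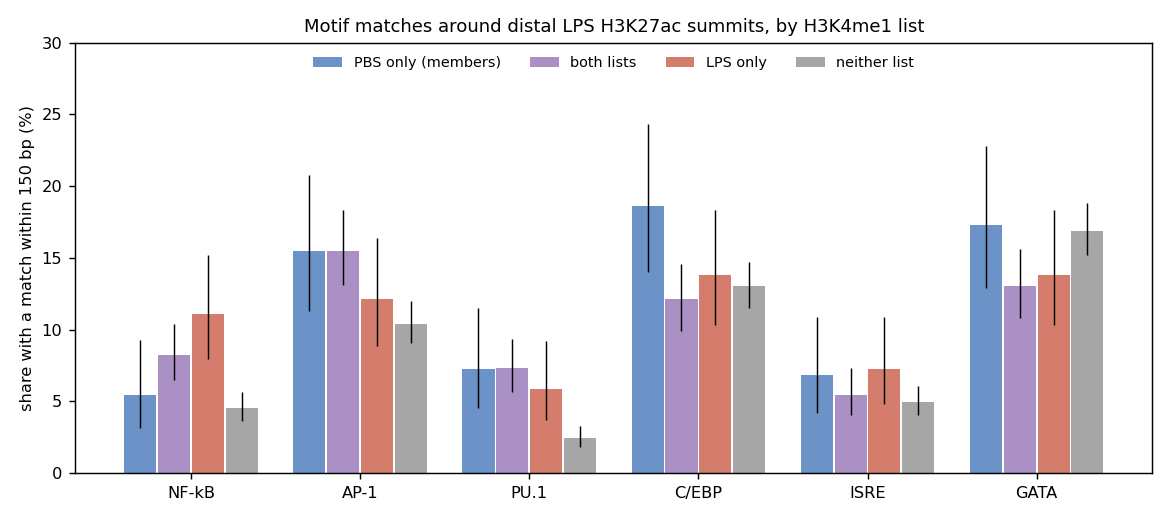
Share of distal LPS H3K27ac summits with a motif match within 150 bp, in percent, by the H3K4me1 list that holds the summit, with 95% Wilson intervals as error bars. The cAMP response element, at 0 of 220, is not plotted. For the 220 regions the plotted shares run from 5.45% (NF-kB) to 18.6% (C/EBP), and for each plotted motif their interval overlaps that of summits in both lists.

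The NF-kB matches of 8 regions are shown with 10 bases on either side, to let the sites be compared. Capitals mark the match, the strand is that of the sequence shown, and the name is that of the nearest protein-coding gene. The sites of Amn1, Tomm20, Abcc1, Htra4 and Peli1 also match on the other strand, at the same bases or shifted by 1 base. Positions are in GRCm38.
Zfp703 (chr8:26963186-26963215, + strand): tctgcctcctGGGGTCTTCCtgtctctctg
Amn1 (chr6:149193449-149193478, + strand): tgaattcaatGGGAGCTCCCagagagagac
Tomm20 (chr8:126852583-126852612, + strand): actttcttgtGGGACTCCCCagagttgctc
Abcc1 (chr16:14351507-14351536, + strand): ctgggatcacGGGAGGCCCCaaaccttact
Htra4 (chr8:25070388-25070417, + strand): ccctggcctgGGGAGGCCCCcacatttctt
Sdccag8 (chr1:176834381-176834410, + strand): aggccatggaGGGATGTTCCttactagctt
Peli1 (chr11:21082962-21082991, + strand): gaaactataaGGGAGACTCCctagaggaaa
Atxn7l1 (chr12:33170544-33170573, - strand): tgtcacactgGGGATTCTCCacaggacaac

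The matches of Zfp703 and of the near Peli1 region were centred 126 and 115 bp to the left of the summit. Those of Htra4 and Tomm20 were centred close to the summit without covering it, 9 bp to the right and 13 bp to the left. Of the 8 nearest genes of the sites shown, Peli1 was in one of the 6 lists. Neither the site upstream of Tnf nor either Tnfaip3 region had a match to this motif in the window, which says only that these letters were not there.

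The limits of the rule were crossed by a few bases at some sites. The 2 regions closest to a gene start had their edges 1032 and 1152 bp away, near D230025D16Rik and Nmi, and the first peaks on the other side of the limit were 908 and 888 bp away, near Arl4c and Parp9. The least enclosed summits were 1 and 3 bp inside their PBS H3K4me1 peak, near Kank3 and Top3a, and others were left out for lying 1 and 5 bp outside one, near Rassf2 and Ppp3ca. The summits near Dennd2c and Mgat4b were 2 and 4 bp outside an LPS H3K4me1 peak, and summits near Cd47 and Man1a were left out for lying 2 bp inside one.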

How the data were processed

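CUT&RUN was performed by the authors on BMDMs treated with LPS or PBS, with 1 library per antibody and treatment, and the labels gave each sample its group. The authors, per their methods, trimmed reads, mapped the pairs to GRCm38 (Bowtie2 2.4.4), left out blacklisted regions and called peaks in each library with MACS2 2.2.7.1. The deposited fold enrichment is a ratio of coverage at the summit to local background, and the deposited −log10 p and −log10 q are those of the peak caller. The deposited summit offset gave the summit position, and the deposited score was not used. IgG libraries were not used separately.

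Peak lists were compared with bedtools 2.31.1 and Python 3.11.15 (1 bp overlap). Gene starts were the 5′ ends of GENCODE M21 genes, another release than the authors used, and sequence came from RefSeq's GRCm38.p6. Values were compared within a list, apart from the H3K4me1 peaks that held the reverse class of summits. Fragment numbers were recovered from fold enrichment (pseudocount of 1) and the Poisson p-value, which was matched within 0.002 in −log10 units for 100% of peaks. The largest scale per library that matched was used, so the numbers are as small as the values allow. The recovery was tested on simulated peaks. Intervals are 95% Wilson intervals, and no test was run, as no group had replicates.

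Regions, gene lists and motifs were chosen with earlier results of these data known. Regions named were the one in TNF-9, the 10 highest in H3K27ac −log10 q, the 5 in the highest PBS H3K4me1 peaks, for each listed gene the nearest within 50 kb, and those nearest the limits of the rule. Regions with an NF-kB match, those sharing a PBS peak and the one with PBS H3K27ac were named after their values were seen. Mx2 was not matched. No sequence of chromosome 18 is shown. Some sequences and 1 region are not reported here. The alternatives were other thresholds, edges, annotations and windows, and the start sites of all transcripts were added after seeing the data.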

Additional observations from a re-analysis of the deposited data

How the results depend on the processing

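Every count rests on 1 library per mark and treatment and on peak limits, so a region can enter or leave by a few fragments or bases. Under H3K27ac −log10 q of at least 5, there were 67 regions (9.93% of distal peaks), 20.9% had AP-1 and 7 listed genes had a region. Under fold enrichment of at least 5, the regions were 8.85% of distal peaks. Under PBS H3K4me1 −log10 q of at least 5, they were 5.41%, with LPS H3K4me1 within 1000 bp on both sides at 56.2% and on at least 1 side at 90.6%, and 73.1% of PBS peaks overlapped. With that limit in both H3K4me1 lists, those 3 shares were 25.1%, 63.0% and 39.2%. With LPS H3K4me1 peaks extended by 200 bp, there were 106 regions (3.58%), the shares were 24.5%, 70.8% and 30.2%, and 9 listed genes had a region. With H3K4me1 peaks within 1000 bp merged, the regions were 5.61% of distal peaks and the shares 13.3%, 77.7% and 81.9%. With overlap of the whole peak in place of its summit, they were 6.39%, and the shares 35.4%, 75.7% and 43.9%. A 100 bp motif window gave 9.09% with AP-1 and 2.73% with PU.1, a 10 kb gene window gave 10 listed genes, and limits of 500 and 2000 bp gave 31.8% and 63.2% flanked on both sides. The cause of these shifts beyond the altered limits was not tested. The remaining 66 of 97 values stayed within 1.5 times the count or within the interval of the value reported, among them those with a 2500 bp distal limit (198 regions), protein-coding starts only (228) and starts of all transcripts (204, an alternative chosen after seeing the data). The NF-kB share ranged from 3.64% to 7.46%. No paired analysis was possible because each treatment and antibody had 1 library.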
